A study of Mus musculus with 6 samples.

Results

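The smooth muscle contractile genes are the genes that give an aortic muscle cell its force and its identity, and they were followed here as hosts of circular RNA in mouse aorta. They were chosen by name as the 10 symbols Myh11, Acta2, Smtn, Cnn1, Tagln, Mylk, Lmod1, Cald1, Synpo2 and Myocd. Rows with 8 of these symbols were found, holding 107 of the 20532 circRNAs and 8 of the 7051 host symbols of the series. They carried 629 of 110721 back-splice junction reads. Lmod1 was not analysed here, and Tagln could be followed only by position, under another symbol.

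There were 6 libraries of total aortic RNA, with 2 libraries for each of the 3 groups. The high-fat ApoE-/- group (high-fat 1 and 2) consisted of ApoE-/- mice that were given a high-fat diet for 3 months, starting when they were 3 months old. The ApoE-/- chow group (ApoE-/- chow 1 and 2) had the same genotype, and the C57BL/6J chow group (C57BL/6J 1 and 2) was wild type. All 3 groups carry the strain label C57BL/6; no age of the chow-fed animals was available here, and nothing says how many animals were pooled in a library. The study asks how the circRNAs of the atherosclerotic aorta differ from those of chow-fed animals.

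In a smooth muscle cell, calcium and calmodulin activate myosin light chain kinase (Mylk), which phosphorylates the light chains of smooth muscle myosin (heavy chain Myh11) and lets it pull on filaments of smooth muscle alpha-actin (Acta2). Calponin (Cnn1), caldesmon (Cald1), transgelin (Tagln) and smoothelin (Smtn) bind or steady the actin filaments. Myocardin (Myocd) is a coactivator of serum response factor, which binds the CArG box in the control regions of contractile genes. In vessel disease, smooth muscle cells are known to lose this set of genes as they leave the contractile state. A circRNA forms when the end of an exon is spliced back to an earlier exon, and a junction read crosses that join.

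Each circRNA came with 2 whole-number counts, the junction reads and a count over the whole genomic interval. The count minus the junction reads is called the interval reads, and it takes in linear and intronic as well as circular RNA from that stretch. Libraries held 34805 and 16511 junction reads in the high-fat group, 14575 and 14519 in ApoE-/- chow, and 26605 and 3706 in C57BL/6J chow, out of 69130844 to 77352690 reads in all. C57BL/6J 2 therefore carries the least information, and results that rest on it are given with and without it. Apoe, the gene targeted in ApoE-/- mice, had 78 and 75 interval reads in the high-fat group, 128 and 86 in ApoE-/- chow, and 176 and 140 in C57BL/6J libraries. It was lower in each ApoE-/- library than in each C57BL/6J library but not at 0, and the sources used here do not say which part of the gene was deleted. The table of ApoE-/- chow 1 has column names of a C57BL/6J sample, and the label was kept. In bulk aorta, fewer muscle cells and less RNA per muscle cell cannot be told apart.

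Myocardin, the regulator, dominated the circular RNA of the set. Its 385 junction reads were 61.2% of those of all the contractile hosts and placed Myocd 20th of 7051 host symbols, ordered by junction reads over the 6 libraries. Myocd had 98 and 45 junction reads in high-fat libraries, 32 and 82 in ApoE-/- chow, and 128 and 0 in C57BL/6J chow. Per 100000 junction reads of the library these were 282 (95% Wilson interval 231 to 343) and 273 (204 to 364) in high-fat, 220 (156 to 310) and 565 (455 to 700) in ApoE-/- chow, and 481 (405 to 572) and 0 in C57BL/6J chow. The high-fat libraries lay close together, while the intervals of the 2 ApoE-/- chow libraries did not meet. The 0 in C57BL/6J 2 allows up to 104 per 100000 as a Wilson limit (80.9 as 3 reads of its total), and both are below the lowest Wilson bound of the other 5 libraries, 156. These limits cover counting error only, and PCR reads without molecular identifiers are not independent molecules.

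**Figure D1:**
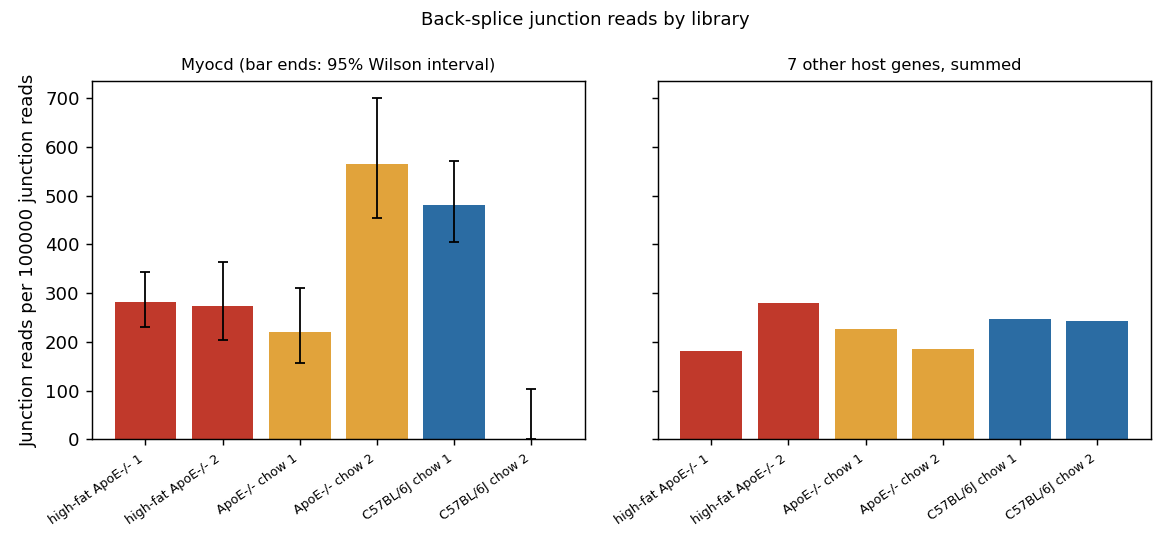
Junction reads per 100000 junction reads of the library, for Myocd (left; black bars are 95% Wilson intervals) and for the 7 other contractile hosts summed (right), in the high-fat ApoE-/- (red), ApoE-/- chow (yellow) and C57BL/6J chow (blue) libraries. Myocd lies between 0 in C57BL/6J 2 and 565 in ApoE-/- chow 2, whereas the other hosts together lie between 181 and 279.

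The other 7 hosts together did not share the 0 of C57BL/6J 2. They summed to 181 and 279 junction reads per 100000 in high-fat, 226 and 186 in ApoE-/- chow, and 248 and 243 in C57BL/6J libraries. The groups overlapped, and C57BL/6J 2 lay within the range of the other libraries on this measure, though on 9 reads only. Low values in C57BL/6J 2 were not particular to Myocd, however. Only 1241 host symbols had a junction read there, against 2287 to 4261 in the other libraries. With C57BL/6J 1 left out, the median log2 fold change of junction reads over 1001 tested host genes was 4.39 for high-fat over C57BL/6J chow (edgeR). With both C57BL/6J libraries it was 0.35 over 1262 host genes. A fold change against 0 reads has no measured size, so 4.39 is not a typical fold difference.

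Nearly all Myocd junction reads came from 1 circRNA and its relatives. The circRNA chr11:65218529-65233184 (GRCm38, 14656 bp, inside the gene bounds chr11:65173608-65269989) had 81 and 37 reads in the high-fat group, 27 and 65 in ApoE-/- chow, and 109 and 0 in C57BL/6J libraries. These 319 reads were 82.9% of the Myocd total, and between 79.3% and 85.2% in each of the 5 libraries with any. The share held by this isoform thus varied far less among libraries than the level did. A shorter circRNA with the same lower end, chr11:65218529-65223789 (5261 bp), had 3 and 8 reads in the high-fat group, 0 and 6 in ApoE-/- chow, and 11 and 0 in C57BL/6J libraries. Of the 10 Myocd circRNAs, 4 shared the position 65218529, and together they held 364 reads (94.5%). The position 65233184 was used by 2 circRNAs with 325 reads (84.4%), so that a single pair of ends accounts for most back-splicing of the gene.

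**Figure D2:**
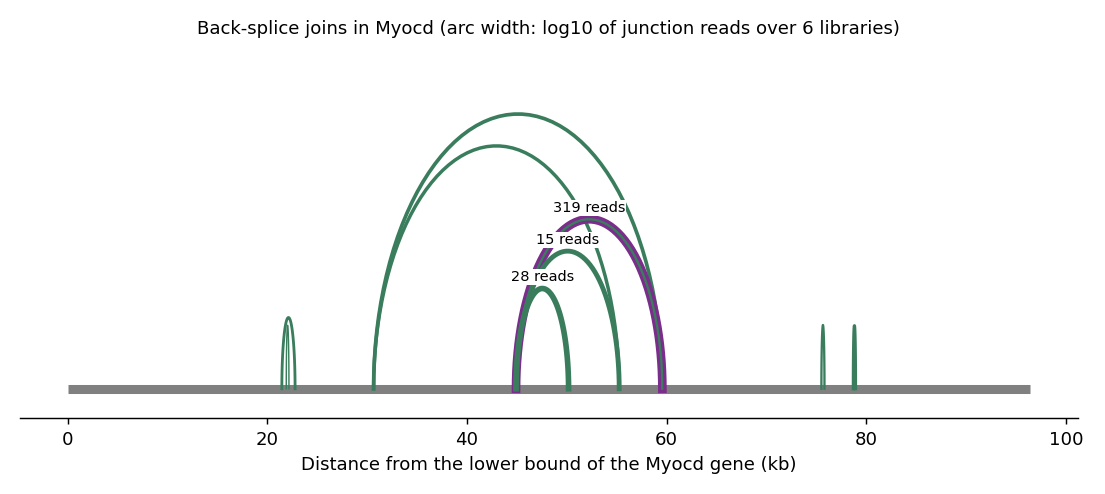
The 10 back-splice joins of Myocd as arcs over the gene (grey bar; distance from its lower bound in kb), with arc width following the log10 of junction reads summed over 6 libraries. The main join (purple, 319 reads) shares its left end with joins of 28 and 15 reads; arc height grows with the span of the join and has no axis of its own.

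Junction reads made up 50.7% of the count over the Myocd intervals, all libraries together. The junction share of the count was 62.8% (95% Wilson interval 55.0 to 70.0) and 48.9% (38.9 to 59.0) in high-fat, 22.7% (16.6 to 30.3) and 64.6% (55.9 to 72.3) in ApoE-/- chow, and 64.0% (57.1 to 70.3) and 0% (up to 8.03) in C57BL/6J libraries. Across the other 7 hosts no library exceeded 2.27%, and over all libraries their shares were 0.114% (Cnn1) to 1.35% (Synpo2). The share depends on how overlapping intervals were counted. Of the 58 circRNAs of these hosts whose interval lay wholly under other listed intervals, 48 (82.8%) had no interval read in any library, against 0 of the 49 others, so the shares compare genes with different layouts. Myocd interval reads were few: 58 and 47 in high-fat, 109 and 45 in ApoE-/- chow, and 72 and 44 in C57BL/6J libraries. C57BL/6J 2 thus had interval reads of Myocd at a number close to that of high-fat 2 and ApoE-/- chow 2, but no junction read. Junction and interval reads of Myocd come from different stretches, however. Every circRNA that starts at 65218529 or 65204259, the main one included, had 0 interval reads in all libraries. The interval reads came from short intervals elsewhere in the gene, with the most (189) at chr11:65195510-65195780. The Myocd share thus sets junction reads mostly of the main stretch against interval reads of others.

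The contractile proteins gave many circRNAs with few reads each. Of the 107 circRNAs 93 (86.9%) were seen in 1 library only, against 80.5% of all circRNAs in the series, and 82 had at most 2 reads. Their median span was 1327 bp, against 1822.5 bp over all circRNAs, and all 107 lay inside the bounds of their host gene. Exon and intron positions were not analysed here, since the annotation used gives only gene bounds.

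Smooth muscle myosin heavy chain, Myh11, had the most isoforms, 35 in a gene of 97662 bp at chr16:14194527-14292188. Its junction reads numbered 28 and 18 in high-fat, 16 and 11 in ApoE-/- chow, and 23 and 2 in C57BL/6J libraries. Per 100000 junction reads this was 80.4 and 109 in high-fat, 110 and 75.8 in ApoE-/- chow, and 86.4 and 54.0 in C57BL/6J chow, and the groups overlapped. The most abundant form, chr16:14211226-14212730, had 3 and 4 reads in the high-fat group, 0 and 4 in ApoE-/- chow, and 9 and 0 in C57BL/6J libraries. A form chosen after its values were seen, chr16:14219860-14220066 (207 bp), had 8 and 3 reads in the high-fat libraries and 0 in the other 4; with 11 reads it was below the minimum for testing.

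Myosin light chain kinase, Mylk, lies at chr16:34745199-35002436 and had 17 isoforms. Its junction reads were 15 and 11 in high-fat, 7 and 7 in ApoE-/- chow, and 9 and 2 in C57BL/6J libraries. Per 100000 junction reads this was 43.1 and 66.6 in high-fat, 48.0 and 48.2 in ApoE-/- chow, and 33.8 and 54.0 in C57BL/6J chow. On this measure the groups overlapped. The form chr16:34952779-34963846 (11068 bp) had 8 and 5 reads in the high-fat group, 0 and 4 in ApoE-/- chow, and 0 and 2 in C57BL/6J libraries. Scaled to junction-read CPM with TMM these were 260.1 and 309.9 in the high-fat group, 0 and 269.0 in ApoE-/- chow, and 0 and 481.7 in C57BL/6J libraries. The groups overlapped, and C57BL/6J 2, the library with the fewest junction reads, was highest on its 2 reads. Position 34952779 was shared by 3 circRNAs with 51% of the Mylk junction reads. That position lies inside the long noncoding RNA gene E130310I04Rik (chr16:34943175-34958994). The form chr16:34952779-34956536 (6 reads) lies wholly inside it, and there the 2 genes cannot be told apart without strand. The form ending at 34963846 (19 reads) and chr16:34952779-34972022 (1 read) have their other end beyond it, inside Mylk.

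Smooth muscle alpha-actin, Acta2 (chr19:34240336-34255585), had 19 isoforms with 8 and 10 junction reads in the high-fat group, 4 and 4 in ApoE-/- chow, and 22 and 2 in C57BL/6J libraries. Per 100000 junction reads this was 23.0 and 60.6 in high-fat, 27.4 and 27.6 in ApoE-/- chow, and 82.7 and 54.0 in C57BL/6J chow. The high-fat libraries overlapped both other groups, while both ApoE-/- chow libraries lay below both C57BL/6J libraries. The share of all host genes with such an order was not computed for junction reads, and C57BL/6J 2 rests on 2 reads. The most abundant form, chr19:34246661-34252551, had 9 of its 11 reads in C57BL/6J 1 and the other 2 in ApoE-/- chow 1. The start region of Acta2 is shown because the genes of this set are textbook targets of serum response factor. The CArG box was searched as CC, then 6 bases that are each A or T, then GG; the pattern is its own reverse complement, so 1 scan covers both strands, and neighbouring matches were counted separately. None of the 8 RefSeq promoter windows of 7 contractile hosts (300 bases each) held a full match, against 1.63% of all 32851 windows. A window takes in 250 bases upstream of the start and 50 downstream. CArG boxes further upstream or within the genes were not searched. With 1 departure allowed in the A or T core, a setting added after the strict search gave none, only the Acta2 window matched, at bases 167 to 176 and 217 to 226 of the window (capitals). Of all windows 9.98% held at least 1 such match and 0.822% at least 2. A match is a description of letters and not of binding. The window is chr19:34255324-34255623 on the minus strand of GRCm38.p6, from RefSeq, 5′ to 3′:

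Acta2 promoter window: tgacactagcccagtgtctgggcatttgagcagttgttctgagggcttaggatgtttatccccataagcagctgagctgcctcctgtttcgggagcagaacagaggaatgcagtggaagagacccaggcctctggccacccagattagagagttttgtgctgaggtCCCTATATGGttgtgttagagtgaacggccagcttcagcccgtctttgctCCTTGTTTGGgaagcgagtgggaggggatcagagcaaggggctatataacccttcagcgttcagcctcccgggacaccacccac

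The filament-binding members had the fewest junction reads. Synaptopodin 2 (Synpo2), an actin-bundling protein of muscle, had 7 and 5 in high-fat, 2 and 1 in ApoE-/- chow, and 6 and 1 in C57BL/6J libraries. Per 100000 junction reads Synpo2 was at 20.1 and 30.3 in high-fat, 13.7 and 6.89 in ApoE-/- chow, and 22.6 and 27.0 in C57BL/6J chow. Both ApoE-/- chow libraries were thus below the other 4, on 2 and 1 reads. The Synpo2 form chr3:123112398-123112596 (199 bp) had 5 and 4 reads in the high-fat libraries and 0 in the other 4. This form, like the short Myh11 one, was seen in both high-fat libraries and no other, and was below the minimum for testing; the pattern was picked out after the values were seen. Such forms were 2 of the 107 contractile circRNAs (1.87%), against 325 of all 20532 (1.58%), a share near the background. High-fat 1 is the library with the most junction reads. Cald1 had 1 and 1 junction reads in the high-fat group, 2 and 2 in ApoE-/- chow, and 4 and 1 in C57BL/6J libraries, each of its 7 forms in 1 library only. Smtn had 1 and 1 in high-fat, 0 and 2 in ApoE-/- chow, and 2 and 1 in C57BL/6J libraries over 5 forms. Cnn1 had 3 and 0 in high-fat, 2 and 0 in ApoE-/- chow, and 0 and 0 in C57BL/6J libraries. At 0 to 4 reads a library, no difference between groups was detectable for Cald1, Smtn or Cnn1. Their most abundant forms had 2 reads each (of Cald1 chr6:34745698-34745912 and 3 more, of Smtn chr11:3522813-3526480 and 1 more, of Cnn1 chr9:22099327-22105504 and 1 more).

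No contractile host passed by junction reads. Host genes were tested where 2 or more libraries had 5 or more junction reads, which 1262 did; 5 of these were contractile hosts (Myh11, Acta2, Mylk, Synpo2 and Myocd). For high-fat over ApoE-/- chow, 0 of the 5 passed, against 0.0792% of all host genes (edgeR's quasi-likelihood test, smallest adjusted p of the 5 = 0.999). For high-fat over C57BL/6J chow and for ApoE-/- chow over C57BL/6J chow, 0 of the 5 passed, against 0% of all host genes in each (edgeR, smallest adjusted p = 0.996 and 1). An unadjusted p under 0.05 was seen for 0 of the 5 in each comparison, and DESeq2 also called 0. By circRNA, 3 of 1015 tested forms belonged to contractile hosts, the 2 Myocd forms and the Mylk form given above. Of these 0 passed in each comparison, against 0.0985% of all circRNAs for high-fat over ApoE-/- chow, 0.0985% for high-fat over C57BL/6J chow and 0% for ApoE-/- chow over C57BL/6J chow (edgeR, adjusted p = 1 throughout; 0 with an unadjusted p under 0.05; DESeq2 called 0).

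Interval reads gave far more counts, 66450 over the contractile hosts. All 8 hosts had interval reads in every library. The values below are interval reads per 1000000 of the library with TMM scaling (CPM). They are not divided by length, so they compare libraries within a gene and not genes with each other. The TMM factors were 0.976 and 0.804 in the high-fat group, 0.936 and 1.23 in ApoE-/- chow, and 0.653 and 1.69 in C57BL/6J libraries, so the scaling raises C57BL/6J 1 against C57BL/6J 2 for every gene. Scaling by the plain sum of interval reads, with no TMM factor, was added after seeing the data and is given where it changes an order or a call.

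**Figure D3:**
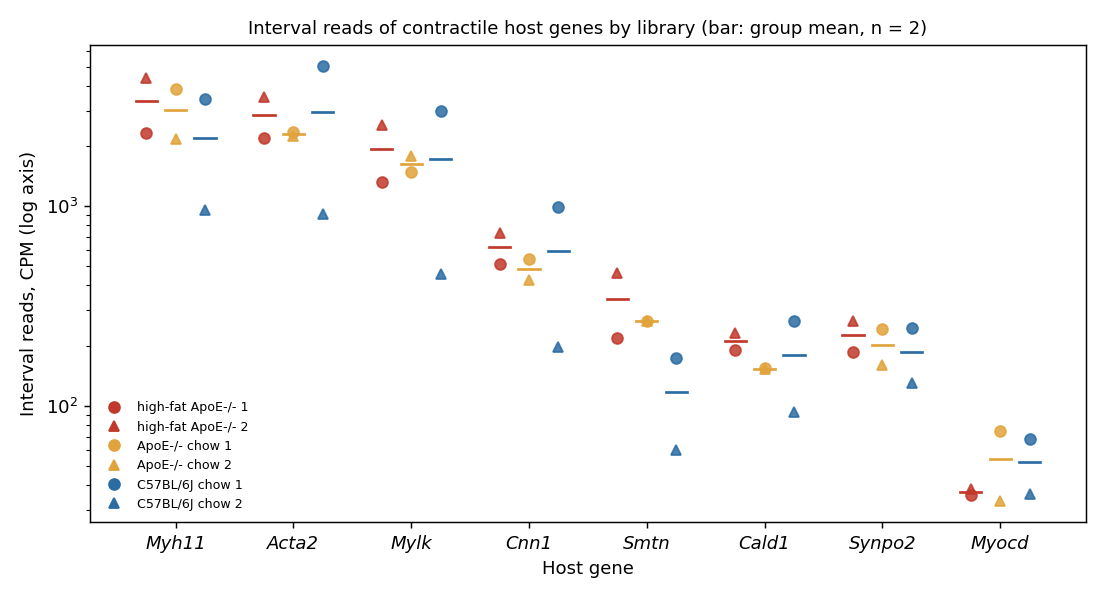
Interval reads of the 8 contractile hosts in CPM (log axis) in each library, with high-fat ApoE-/- (red), ApoE-/- chow (yellow) and C57BL/6J chow (blue) from left to right within a gene; circles are replicate 1, triangles replicate 2 and bars group means (n = 2). The 2 C57BL/6J libraries lie far apart for Acta2, Mylk and Cnn1, and Smtn is lower in both C57BL/6J libraries than in the other 4; levels are not comparable between genes, since length is not divided out.

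Smtn, an actin-binding protein found in contractile smooth muscle, had the largest log2 fold changes of the 8 hosts between genotypes. It stood at 217.3 and 464.2 CPM in the high-fat group, 264.4 and 266.2 CPM in ApoE-/- chow, and 173.1 and 59.74 CPM in C57BL/6J libraries. All 4 ApoE-/- libraries lay above both C57BL/6J libraries, while the high-fat libraries spanned those of ApoE-/- chow. The log2 fold change was 1.55 ± 0.53 (SE) for high-fat over C57BL/6J chow (edgeR, unadjusted p = 0.0063, adjusted p = 1.00 over 6122 host genes) and 1.19 ± 0.52 for ApoE-/- chow over C57BL/6J chow (edgeR, unadjusted p = 0.030, adjusted p = 1.00). Neither passed the threshold of 0.05, and both comparisons share the C57BL/6J libraries. Smtn remained higher under every alternative run, with log2 values between 0.90 and 2.51 for high-fat and between 0.64 and 2.20 for ApoE-/- chow over C57BL/6J chow. With plain interval-sum scaling the libraries stood at 212.2 and 373.1 per 1000000 interval reads in the high-fat group, 247.4 and 328.0 in ApoE-/- chow, and 113.0 and 101.2 in C57BL/6J libraries, still without overlap. With 2 libraries a group, complete separation is common. With TMM scaling 13.9% of all host genes were higher without overlap for high-fat over C57BL/6J chow and 12.3% for ApoE-/- chow over C57BL/6J chow. Among the 8 contractile hosts it was Smtn alone in each. With interval-sum scaling it was Myh11 too in both, and Cald1 for high-fat over C57BL/6J chow. The share over all host genes was not computed with that scaling.

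As a share of the interval reads of the 8 hosts within a library, Smtn made up 3.12% and 3.81% in high-fat, 2.94% and 3.68% in ApoE-/- chow, and 1.32% and 2.10% in C57BL/6J libraries. This share does not use the scaling between libraries, and its groups separated in the same way. Part of Smtn (chr11:3517522-3539292) overlaps the long noncoding RNA gene Gm11946. The 3 Smtn circRNA intervals outside that overlap gave 165 and 404 CPM in the high-fat group, 227 and 199 CPM in ApoE-/- chow, and 132 and 48.3 CPM in C57BL/6J libraries, again with both C57BL/6J libraries lowest.

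The motor and its kinase did not separate by group. Myh11 stood at 2321 and 4399 CPM in the high-fat group, 3872 and 2174 CPM in ApoE-/- chow, and 3423 and 960.8 CPM in C57BL/6J libraries. Acta2 stood at 2187 and 3520 CPM in the high-fat group, 2360 and 2238 CPM in ApoE-/- chow, and 5013 and 907.6 CPM in C57BL/6J libraries. Mylk stood at 1318 and 2540 CPM in the high-fat group, 1478 and 1780 CPM in ApoE-/- chow, and 2981 and 457.5 CPM in C57BL/6J libraries. For Acta2 and Mylk the highest and the lowest library of the series were C57BL/6J 1 and C57BL/6J 2, which differed 5.52-fold and 6.52-fold. The ratio was 4.6 and 5.43 with total-read scaling, and 2.13 and 2.51 with interval-sum scaling, where ApoE-/- chow 2 was the highest library for Mylk. Calponin had the same highest and lowest library with TMM, with Cnn1 at 512.7 and 731.0 CPM in the high-fat group, 545.4 and 423.9 CPM in ApoE-/- chow, and 992.0 and 195.6 CPM in C57BL/6J libraries.

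Caldesmon was the one host whose high-fat libraries both lay above both ApoE-/- chow libraries with TMM scaling. Cald1 stood at 189.7 and 232.5 CPM in the high-fat group, 153.6 and 152.4 CPM in ApoE-/- chow, and 265.7 and 93.3 CPM in C57BL/6J libraries. Its log2 fold change for high-fat over ApoE-/- chow was 0.46 ± 0.50 (SE; edgeR, adjusted p = 0.999), and 16.2% of all host genes were higher without overlap in that comparison. With interval-sum scaling Cald1 overlapped in that comparison, at 185.2 and 186.9 per 1000000 interval reads in the high-fat group and 143.7 and 187.8 in ApoE-/- chow. The C57BL/6J libraries, at 173.4 and 158, were then both below both high-fat libraries. Synpo2 stood at 185.4 and 266.8 CPM in the high-fat group, 241.7 and 159.1 CPM in ApoE-/- chow, and 244.0 and 129.3 CPM in C57BL/6J libraries. Myocd stood at 35.61 and 38.34 CPM in the high-fat group, 75.06 and 33.46 CPM in ApoE-/- chow, and 68.09 and 36.01 CPM in C57BL/6J libraries. With TMM scaling both overlapped in all 3 comparisons. With interval-sum scaling Myocd was at 34.76 and 30.82 per 1000000 interval reads in high-fat and 70.22 and 41.23 in ApoE-/- chow. The C57BL/6J libraries were at 44.44 and 61, so both high-fat libraries lay below all others. Such an order was seen for 5.01% of all host genes with that scaling.

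No contractile host passed by interval reads. For high-fat over ApoE-/- chow, 7 of 8 had a positive log2 fold change (median 0.28, against 0.03 over all 6122 host genes), and 0 of 8 passed, against 0% of all host genes. The exception was Myocd, at -0.56 ± 0.50 (SE). For high-fat over C57BL/6J chow, 6 of 8 were positive (median 0.20, against -0.02 over all) and 0 passed, against 0.0163% of all host genes. For ApoE-/- chow over C57BL/6J chow, 4 of 8 were positive (median -0.01, against -0.02 over all) and 0 passed, against 0% of all host genes. Adjusted p was 0.999 or more for every host (edgeR), DESeq2 called 0 in each comparison, and an unadjusted edgeR p under 0.05 was seen for 0, 1 and 1 hosts in the order given, the 1 being Smtn. Without ApoE-/- chow 1, whose column names disagree with its label, 0 hosts passed in each comparison; the median was 0.41 for high-fat over ApoE-/- chow and -0.23 for ApoE-/- chow over C57BL/6J chow, and Smtn was at 1.20 in the second (edgeR, adjusted p = 1.00). Scaling by total reads instead of TMM moved the median of all host genes to 0.18 for high-fat and 0.16 for ApoE-/- chow over C57BL/6J chow, and the medians of the contractile hosts to 0.44 and 0.24. Interval-sum scaling gave medians of -0.05 for high-fat over ApoE-/- chow (-0.25 over all host genes), 0.16 for high-fat over C57BL/6J chow (-0.37 over all) and 0.13 for ApoE-/- chow over C57BL/6J chow (-0.10 over all), with 0 hosts past the threshold.

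**Figure D4:**
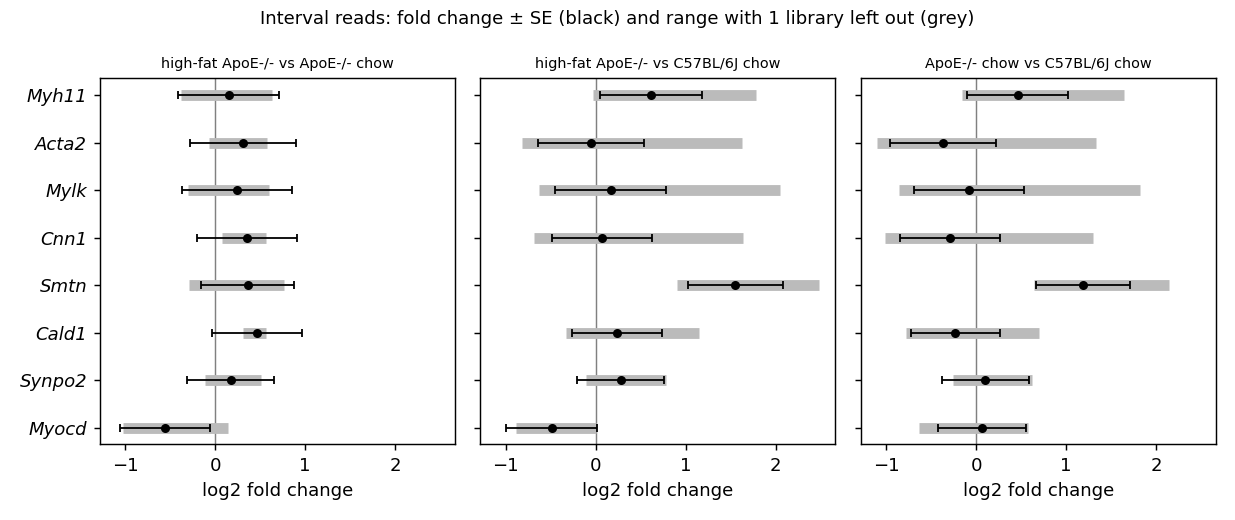
Log2 fold changes of interval reads (first-named group over second) for the 8 contractile hosts, as black points with SE bars, and the range of the same value when 1 of the 6 libraries is left out, as grey bands. Bands cross 0 for most hosts against C57BL/6J chow, and Smtn stays above 0 in both of those panels.

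The comparisons with C57BL/6J chow turned on which C57BL/6J library was used. Without C57BL/6J 1, 5 of 8 hosts passed for high-fat over C57BL/6J chow, against 2.61% of 6050 host genes. They were Mylk (log2 2.05; edgeR, adjusted p = 3.0e-04), Smtn (2.48; adjusted p = 3.3e-04), Acta2 (1.63; adjusted p = 9.7e-04), Cnn1 (1.64; adjusted p = 0.0028) and Myh11 (1.78; adjusted p = 0.014). The same 5 passed for ApoE-/- chow over C57BL/6J chow, against 1.07% of 6050, with log2 values of 1.82, 2.14, 1.33, 1.30 and 1.64 in that order (edgeR, adjusted p between 0.0033 and 0.044). Without C57BL/6J 2 none passed, and the medians turned to -0.48 for high-fat and -0.54 for ApoE-/- chow over C57BL/6J chow. A single library then stands for the group and is assumed to vary like the others. The calls without C57BL/6J 1 depended on the scaling: with total-read scaling 5 hosts passed for high-fat and 3 (Myh11, Mylk and Smtn) for ApoE-/- chow over C57BL/6J chow, and with interval-sum scaling 0 passed in each. Smtn stayed positive without C57BL/6J 2, at 0.97 for high-fat and 0.64 for ApoE-/- chow over C57BL/6J chow.

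Marker lists of other cell types also differed between the C57BL/6J libraries. They are summed over the genes with a listed circRNA interval; a gene with no listed interval was not counted, which is no measured 0. Summed over the 8 hosts, interval reads came to 6966 and 12192 CPM in the high-fat group, 8990 and 7228 CPM in ApoE-/- chow, and 13159 and 2840 CPM in C57BL/6J 1 and 2. Fibroblast markers (7 of 10 with a listed interval; Dcn and Lum among those with none) summed to 5891 and 9174 CPM in the high-fat group, 5189 and 5281 CPM in ApoE-/- chow, and 5533 and 2727 CPM in C57BL/6J libraries. Adipocyte markers (10 of 13; Adipoq with no listed interval) summed to 1400 and 1031 CPM in the high-fat group, 1692 and 938.6 CPM in ApoE-/- chow, and 2426 and 655.5 CPM in C57BL/6J libraries. Both lists were lowest in C57BL/6J 2 with TMM, as the contractile hosts were. With interval-sum scaling the contractile sum was still lowest there, but fibroblast markers were lowest in C57BL/6J 1 and adipocyte markers in high-fat 2. Striated muscle markers (3 of 15, with no listed interval for Ttn, Myh7 and Acta1) were highest in C57BL/6J 2 with either scaling, at 1158 and 1002 CPM in the high-fat group, 1224 and 1531 CPM in ApoE-/- chow, and 1085 and 1674 CPM in C57BL/6J libraries. The 3 were Myh2, Myh6 and Ryr1, and Myh2 alone carried this sum. Its group means were 1062 CPM in high-fat, 1353 in ApoE-/- chow and 1351 in C57BL/6J chow. Group means of Myh6 and Ryr1 lay between 9.29 and 16.8 CPM, so the sum stands for 1 gene. Macrophage markers (Gpnmb, Mrc1, Itgam and Emr1, an older symbol of Adgre1; Cd68 with no listed interval) summed to 273.8 and 296.1 CPM in the high-fat group, 112.2 and 188.9 CPM in ApoE-/- chow, and 139.0 and 117.0 CPM in C57BL/6J libraries. Gpnmb, a glycoprotein of lipid-laden macrophages, carried the higher sum of the high-fat group, at 173.8 and 238.2 CPM in the high-fat group, 30.99 and 85.52 CPM in ApoE-/- chow, and 17.97 and 27.01 CPM in C57BL/6J libraries; it was picked out after its values were seen. Without Gpnmb the list summed to 100.1 and 57.92 CPM in the high-fat group, 81.26 and 103.4 CPM in ApoE-/- chow, and 121.0 and 90.02 CPM in C57BL/6J libraries, and the groups overlapped. Endothelial markers (8 of 10; Nos3 with no listed interval) ranged between 229.1 and 324.7 CPM, lowest in C57BL/6J 2 with TMM and highest there with interval-sum scaling. The 1 neural marker with a listed interval ranged between 317.7 and 479.5 CPM, highest in C57BL/6J 2 with either scaling. The part of tissue make-up in the values of the contractile hosts was not tested.

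Tagln, which encodes the actin-binding protein transgelin, had no circRNA under its own symbol, but 9 circRNAs between 45930139 and 45930927 on chromosome 9 lie inside its RefSeq bounds (chr9:45929628-45936058) under the symbol fantom3_2210406K15. These were found by position after the symbol search gave none and stand outside the 8 hosts. Their interval reads came to 1144 and 1203 CPM in the high-fat group, 1321 and 890.1 CPM in ApoE-/- chow, and 1915 and 276.6 CPM in C57BL/6J libraries. C57BL/6J 1 was again the highest library and C57BL/6J 2 the lowest, with interval-sum scaling too. Junction reads numbered 5 and 0 in high-fat, 7 and 4 in ApoE-/- chow, and 5 and 0 in C57BL/6J libraries. The stretch also lies within the bounds of Pcsk7, a proprotein convertase, and without strand the 2 genes cannot be told apart. In the same way 1 circRNA with the symbol fantom3_9530072G02 lies inside Smtn; its interval reads were 159 and 331 in high-fat, 128 and 164 in ApoE-/- chow, and 97 and 25 in C57BL/6J libraries.

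With TMM scaling the hosts varied together across the 6 libraries, with Myocd apart. The correlation of log2(CPM + 1) of a host with the mean of the other hosts was 0.90 to 0.96 for Myh11, Acta2, Cnn1, Mylk, Cald1 and Synpo2, 0.78 for Smtn and 0.42 for Myocd (Pearson's r, n = 6 libraries that share scaling and tissue, given as a description). For the circRNAs at the Tagln locus it was 0.94. With interval-sum scaling the correlations were lower, at 0.86 for Myh11, 0.78 for Mylk, 0.68 for Cnn1, 0.65 for Smtn, 0.64 for Acta2, 0.21 for Cald1, -0.05 for Synpo2 and -0.54 for Myocd. With TMM scaling, among 1212 other host genes with at least 50 interval reads in every library, the 5 most like the mean profile of 7 hosts (all but Myocd) were Tob2 (r = 0.995), Tor1aip2 (0.992), Aldh2 (0.991), Mfge8 (0.991) and Fhl1 (0.989). Mfge8, a secreted glycoprotein whose fragment medin is found in human aortic walls, stood at 532.9 and 1043 CPM in the high-fat group, 557.8 and 458.8 CPM in ApoE-/- chow, and 773.6 and 126.0 CPM in C57BL/6J libraries. Within groups, the CPM of Mfge8 differed most between the C57BL/6J libraries. Its highest library was high-fat 2 and its lowest C57BL/6J 2, and this was so with interval-sum scaling too, at 838.7 and 213.5.

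Of 20 further genes of the contractile apparatus and cytoskeleton, 17 were tested and 0 passed in any comparison (edgeR). A positive log2 fold change was seen for 14 of 17 for high-fat over ApoE-/- chow (median 0.22), 11 of 17 for high-fat over C57BL/6J chow (0.28) and 11 of 17 for ApoE-/- chow over C57BL/6J chow (0.07). Of all 6122 host genes 52.4%, 48.5% and 48.4% were positive in these comparisons, and 0%, 0.0163% and 0% passed. The counts of positive genes in this and the next lists are given with TMM scaling only. Flna, the actin cross-linker filamin A, stood at 5004 and 6637 CPM in the high-fat group, 5507 and 4306 CPM in ApoE-/- chow, and 6343 and 1178 CPM in C57BL/6J libraries. Myl9, the regulatory light chain that Mylk phosphorylates, stood at 1084 and 1741 CPM in the high-fat group, 1384 and 1022 CPM in ApoE-/- chow, and 2488 and 368.3 CPM in C57BL/6J libraries. Myl6, the essential light chain, and Fhl1, a LIM-domain protein of muscle, also had their highest and lowest values in C57BL/6J 1 and 2, with 2369 against 291.3 CPM and 1315 against 277.4 CPM. With interval-sum scaling C57BL/6J 2 was the lowest library for all 4 of these genes, and C57BL/6J 1 the highest for Myl9 and Myl6 but not for Flna or Fhl1.

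Of 20 genes of contraction signalling, 15 were tested and 0 passed. A positive log2 fold change was seen for 7 of 15 for high-fat over ApoE-/- chow (median -0.02), 13 of 15 for high-fat over C57BL/6J chow (0.23) and 13 of 15 for ApoE-/- chow over C57BL/6J chow (0.24). The shares over all host genes were 52.4%, 48.5% and 48.4%. These genes are not independent, and whether the list moved as a set was not tested. Prkg1, the cGMP-dependent kinase that relaxes smooth muscle, stood at 688.9 and 606.2 CPM in the high-fat group, 677.6 and 633.6 CPM in ApoE-/- chow, and 455.8 and 819.2 CPM in C57BL/6J libraries. Pde5a, the phosphodiesterase that breaks down cGMP, stood at 184.2 and 212.9 CPM in the high-fat group, 172.2 and 231.3 CPM in ApoE-/- chow, and 135.2 and 270.1 CPM in C57BL/6J libraries. For both genes C57BL/6J 2 was the highest library of the series and C57BL/6J 1 the lowest with either scaling, whereas Acta2 and Cnn1 were highest in C57BL/6J 1 and lowest in C57BL/6J 2. Itpr1, a calcium release channel, and Ppp1r12b, a myosin phosphatase subunit, were lowest in C57BL/6J 2, at 203.8 and 118.7 CPM, but not with interval-sum scaling, where ApoE-/- chow 1 was lowest for Itpr1 and C57BL/6J 1 for Ppp1r12b.

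Of 16 genes around serum response factor and myocardin, 9 were tested and 0 passed. A positive log2 fold change was seen for 5 of 9 for high-fat over ApoE-/- chow (median 0.01), 5 of 9 for high-fat over C57BL/6J chow and 4 of 9 for ApoE-/- chow over C57BL/6J chow (-0.04), near the shares over all host genes given above. Notch3, a receptor of arterial smooth muscle, stood at 150.4 and 155.0 CPM in the high-fat group, 116.4 and 134.6 CPM in ApoE-/- chow, and 111.6 and 77.75 CPM in C57BL/6J libraries. Tead1, a transcription factor that binds muscle gene promoters, stood at 76.75 and 103.6 CPM in the high-fat group, 48.89 and 46.10 CPM in ApoE-/- chow, and 73.76 and 40.92 CPM in C57BL/6J libraries. For these genes and Mef2c (45.36 to 75.87 CPM), each high-fat library was above the other 4, and none of the 3 passed (edgeR, adjusted p = 0.999 or more). With TMM scaling such an order was seen for 5.29% of all host genes with the high-fat libraries above and for 5.01% with them below. It was seen for 0 of the 8 contractile hosts either way. In the same list Mkl1, a myocardin-related coactivator picked out after its values were seen, lay the other way, at 9.823 and 10.61 CPM in the high-fat group, 17.22 and 28.26 CPM in ApoE-/- chow, and 12.29 and 25.37 CPM in C57BL/6J libraries. With interval-sum scaling the order held for Tead1 and not for Notch3, Mef2c or Mkl1. Of the contractile hosts, Myocd then had both high-fat libraries below the other 4. The shares over all host genes were then 1.76% above and 5.01% below. With TMM scaling Mef2a had its highest value, 50.12 CPM, in C57BL/6J 1.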

How the data were processed

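Per the file headers, the authors deposited, for each of 6 libraries, whole-number counts of reads per circRNA interval, an RPM column (that count per 1000000 library reads) and whole-number counts of junction reads. Library totals were computed from count and deposited RPM. The submitters' processing notes name TopHat and HTSeq and the build GRCm38; the caller of back-splice joins and the strand setting are not given in the sources used here. The labels give the groups; the table of ApoE-/- chow 1 has column names of a C57BL/6J sample. The labels do not say whether replicates are separate animals; p-values reflect only the variation among these libraries, which could be technical. The members, the gene lists and the tests were chosen with earlier results of these data known.

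Counts minus junction reads (at least 10 in 2 libraries) and junction reads (at least 5 in 2 libraries) were fitted over whole tables with edgeR 4.0.16 (R 4.3.3; quasi-likelihood, robust, TMM, 3 group means), with Benjamini-Hochberg adjustment over all features and a threshold of 0.05. Standard errors were computed as the log2 fold change over the square root of F. Alternatives were total-read scaling, DESeq2 1.42.0 size factors and Wald test, no minimum, minima of 20 interval or 10 junction reads, the 4 libraries compared, a replicate block, the count column and each library left out; added after seeing the data were scaling by the sum of interval reads, and that or total-read scaling without C57BL/6J 1. Named were all members, their tested and most abundant circRNAs, the 4 highest genes of each pathway list, any that passed, and the 5 genes most like the members. Wilson intervals are at 95%.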

Additional observations from a re-analysis of the deposited data

How the results depend on the processing

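The number of contractile hosts or circRNAs past the threshold was 0 in all 9 tests, and stayed 0 under each alternative run except that 0 to 5 hosts passed by interval reads when 1 library was left out, for high-fat and likewise for ApoE-/- chow over C57BL/6J chow; the 5 came without C57BL/6J 1. In settings added after seeing the data, without C57BL/6J 1 the numbers were 5 and 3 with total-read scaling and 0 and 0 with interval-sum scaling. Of 24 log2 fold changes of hosts by interval reads, 4 kept their sign under every alternative: Smtn in both comparisons with C57BL/6J chow, and Cald1 and Cnn1 for high-fat over ApoE-/- chow. The other 20 changed sign when some library was left out. For high-fat over ApoE-/- chow the values then lay between -0.07 and 0.58 for Acta2, -0.38 and 0.63 for Myh11, -0.30 and 0.60 for Mylk, -1.02 and 0.14 for Myocd, -0.29 and 0.77 for Smtn, and -0.11 and 0.51 for Synpo2. For high-fat over C57BL/6J chow they lay between -0.82 and 1.63 for Acta2, -0.33 and 1.15 for Cald1, -0.68 and 1.64 for Cnn1, -0.03 and 1.78 for Myh11, -0.63 and 2.05 for Mylk, -0.88 and 0.01 for Myocd, and -0.11 and 0.78 for Synpo2. For ApoE-/- chow over C57BL/6J chow they lay between -1.10 and 1.33 for Acta2, -0.78 and 0.70 for Cald1, -1.01 and 1.30 for Cnn1, -0.16 and 1.64 for Myh11, -0.85 and 1.82 for Mylk, -0.63 and 0.58 for Myocd, and -0.26 and 0.62 for Synpo2. Total-read scaling turned Acta2 to 0.20 for high-fat over C57BL/6J chow, and Cald1 to 0.01 and Mylk to 0.19 for ApoE-/- chow over C57BL/6J chow; the median of all host genes moved up as well. Interval-sum scaling gave, for high-fat over ApoE-/- chow, Acta2 0.00, Myh11 -0.12, Mylk -0.10 and Synpo2 -0.09; for high-fat over C57BL/6J chow, Acta2 0.05; and for ApoE-/- chow over C57BL/6J chow, Acta2 0.05, Cnn1 0.08 and Mylk 0.39. With C57BL/6J 1 left out as well, high-fat over ApoE-/- chow kept these values but for Synpo2 at -0.10; high-fat over C57BL/6J chow had Acta2 0.69 and Synpo2 -0.15; and ApoE-/- chow over C57BL/6J chow had Acta2 0.69, Cald1 0.07, Cnn1 0.64, Mylk 1.21, Myocd -0.12 and Synpo2 -0.05. Total-read scaling without C57BL/6J 1 gave Acta2 1.68 and Myocd 0.11 for high-fat over C57BL/6J chow, and Acta2 1.39, Cald1 0.76, Cnn1 1.36 and Mylk 1.88 for ApoE-/- chow over C57BL/6J chow. The count column turned Myocd to -0.19 for ApoE-/- chow over C57BL/6J chow, where junction reads enter the count. The replicate block turned Acta2 to 0.22 for high-fat and Mylk to 0.09 for ApoE-/- chow over C57BL/6J chow and left the count of hosts past the threshold at 0; the cause was not tested. The deviations of same-numbered libraries from their group means correlated at -0.01, -0.13 and 0.11 over 6122 host genes. With 2 libraries a group, each value rests on 1 difference per group. It cannot exclude a shared batch, so whether the numbers pair the libraries stays unknown. The number of junction reads limits the circRNA results: 82 of 107 circRNAs had at most 2 junction reads, and C57BL/6J 2 held 3706 junction reads in all.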
